A study of Homo sapiens with 10 samples.

Results

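RNA-Seq levels were compared between Huh-7 cells and SK-hep1 cells, both carried in the study as human hepatocellular carcinoma lines. All 7 libraries of these lines entered, 2 of Huh-7 and 5 of SK-hep1, out of 10 in the series, and the members are the genes whose FPKM ranges did not overlap between the lines. FPKM is the number of fragments scaled to transcript length and library size. Of 58302 genes listed, 14115 had a mean of the line means of at least 1 FPKM and were tested, and 11059 of these had ranges apart. The Huh-7 libraries were from untreated cells and from cells given 10 ng/ml HGF, the ligand of the receptor MET, for 48 h. The SK-hep1 libraries were from cells given a mock control, from PSPC1 and PSPC1/PTK6 cells, and from cells with PSPC1-Y523F or with PSPC1-Y523F/PTK6. PSPC1 is a paraspeckle RNA-binding protein, PTK6 is a tyrosine kinase, and PSPC1-Y523F is a form of PSPC1 whose tyrosine was replaced by phenylalanine. All of the cells were grown in the same kind of medium, DMEM with fetal bovine serum.

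Each condition had 1 library, so the spread within a line holds the effects of its constructs or of HGF as well as technical error, and p-values measure only the spread between these libraries. No Huh-7 library carried a construct, and the constructs that changed the SK-hep1 cells encode PSPC1 and PTK6, which are therefore no free measure of the line. Huh-7 values were deposited as FPKM only, apart from the SK-hep1 tables, and the line and the set in which its libraries were made cannot be told apart.

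Hepatocytes make most of the proteins of blood plasma, among them albumin, the apolipoproteins and the clotting factors, under the control of a network of nuclear factors that includes HNF4A, the HNF1 proteins, the FOXA proteins and C/EBP proteins. Liver tumor cells can keep this program, and often return to fetal genes such as AFP and GPC3, or lose it. In an epithelial to mesenchymal transition (EMT), cells give up cadherin-based junctions and gain vimentin, matrix proteins and proteases that are known for their roles in migration.

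The lines stood far apart compared with the libraries within each of them. Over the genes tested, the median absolute log2 difference between 2 libraries was 0.111 for the Huh-7 pair, from 0.228 to 0.402 for the 10 SK-hep1 pairs and from 0.983 to 1.22 for the 10 pairs across lines. A change of at least 2-fold on the FPKM + 1 scale was found in 0.503% of genes between the Huh-7 libraries, in 3.59% to 13.1% between SK-hep1 libraries and in 49.3% to 57.9% across lines. Reads on genes numbered from 20222367 to 24278662 in SK-hep1, and 16374128 and 15245935 in Huh-7, where they were recovered from the FPKM. More genes were above 0 in Huh-7 (25838 and 25346) than in SK-hep1 (19497 to 21544), although Huh-7 had fewer reads.

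Of the 14115 genes tested, 6927 (49.1%) were higher in both Huh-7 libraries than in every SK-hep1 library, and 4132 (29.3%) were higher in all 5 SK-hep1 libraries than in either Huh-7 library. The nearest libraries were at least 2-fold apart for 3482 and 1769 of them, at least 10-fold for 590 and 283, and at least 100-fold for 73 and 28. The other line was listed at 0 in every library for 487 genes higher in Huh-7 and for 205 genes higher in SK-hep1. The scale mattered for the balance of directions. The median log2 difference over all genes tested, Huh-7 minus SK-hep1, was 0.42 in the deposited FPKM and 0.05 after quantile normalization, and the share of genes with ranges apart that were higher in Huh-7 fell from 62.6% to 52.0%.

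A test with limma on quantile-normalized log2(FPKM + 1) was used beside the ranges, since an exact permutation test of 2 against 5 libraries cannot give a two-sided p below 0.0952. At an adjusted p below 0.05 and a difference of at least 2-fold, 3691 genes (26.1%) were called higher in Huh-7 and 3333 (23.6%) higher in SK-hep1. Of these, 3687 and 3150 also had ranges apart. Without quantile normalization the share of calls that were higher in Huh-7 was 65.6%, against 52.5% with it. Below, log2 differences are Huh-7 minus SK-hep1 after quantile normalization, with the standard error (SE), and a gene is said to be called where it passed this test. Because 1 FPKM was added before taking logarithms, the log2 difference of a gene at or near 0 in a line is no bound on its fold change. Gene lists are described by how many of their tested members were apart or called. A member that is low in one line could pass the filter only through the line in which it is high, so these counts do not stand for all members of a list and are a description. The libraries are bulk RNA, in which fewer cells of a type and less RNA per cell cannot be told apart.

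**Figure D1:**
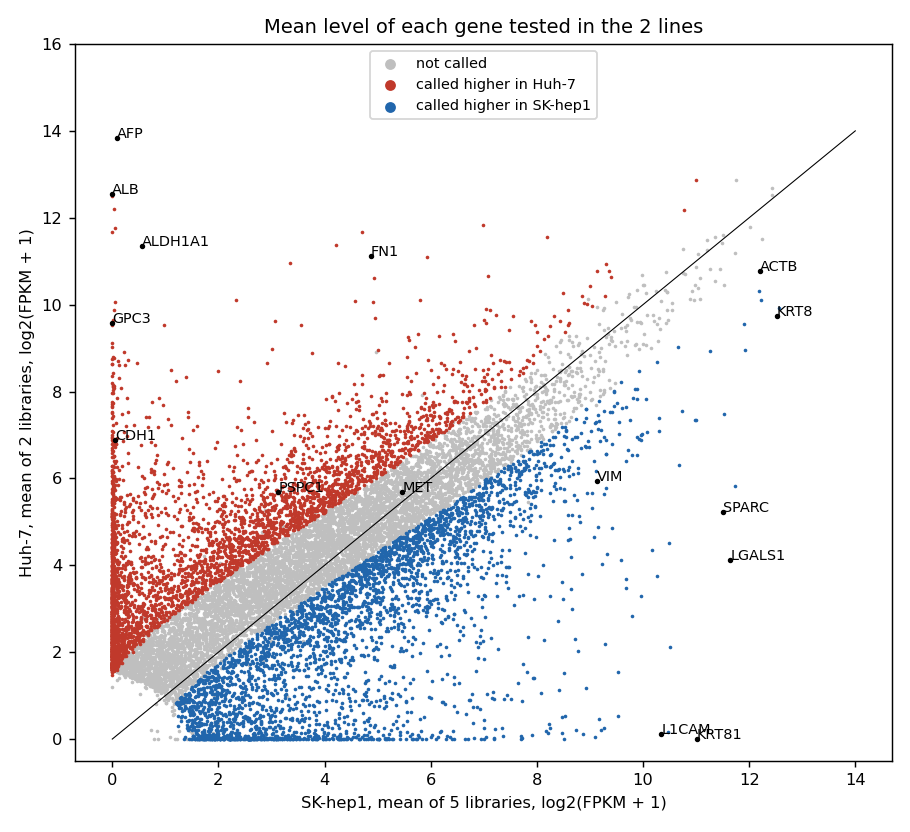
Mean level of each gene tested in SK-hep1 (x axis, 5 libraries) and Huh-7 (y axis, 2 libraries), both as log2(FPKM + 1) of the deposited values. Red points are genes called higher in Huh-7 and blue points genes called higher in SK-hep1 by limma, the line marks equal levels, and named genes are in black; AFP and ALB lie at the top left, near 0 in SK-hep1, and KRT81 and L1CAM at the bottom right, near 0 in Huh-7.

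Many of the genes with the widest gap in favor of Huh-7 encode secreted liver proteins. AFP, the fetal counterpart of albumin, was at 14881 FPKM in Huh-7 without HGF and 14370 FPKM with it. In SK-hep1 it was at 0.0474, 0.0508, 0, 0 and 0.212 FPKM, in the order used throughout, which is mock, then PSPC1 alone and with PTK6, then the Y523F form alone and with PTK6. Its log2 difference was 13.04 (SE 0.17, limma adjusted p = 3.95e-09). ALB, which encodes albumin, was at 5948 and 6029 FPKM in Huh-7 and was listed at 0 in all 5 SK-hep1 libraries. The same was true of the protease inhibitor A2M (5827 and 5807 FPKM), of TF, the iron carrier transferrin (3241 and 3248 FPKM), of RBP4, the carrier of retinol (739 and 749 FPKM), and of FGB and FGG, which encode fibrinogen chains (719 and 808 FPKM, and 502 and 614 FPKM). These genes were picked for the widest gap, so the distance of every SK-hep1 library from Huh-7 was fixed by the choice.

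The 15 genes with the widest gap in favor of Huh-7 also held APOA2 and APOA1, the apolipoproteins of high-density lipoprotein, AMBP, ITIH2 and AHSG, which are plasma proteins, and GPC3, a cell surface proteoglycan of fetal liver and liver tumors. GPC3 was at 774 and 759 FPKM in Huh-7 and was listed at 0 in every SK-hep1 library. ALDH1A1, an enzyme that oxidizes retinal, was also among them. It was at 2606 and 2648 FPKM against 0.207 to 0.787 FPKM, a log2 difference of 10.60 (SE 0.22, limma adjusted p = 1.25e-08).

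Of 50 plasma protein genes, 44 passed the filter on low values, and the 44 had ranges apart in favor of Huh-7, where 49.1% of all genes had. As most of them were at or near 0 in SK-hep1, they passed the filter through Huh-7, which nearly fixed that direction, and nothing is read from the count. limma called 43 of them, C4A being the exception, and their median log2 difference was 7.16, against 0.05 over all genes tested. Summed over the 50 genes, the FPKM were 48858 and 49982 in Huh-7 and from 60.5 to 229.5 in SK-hep1. The SK-hep1 libraries carry the label of a hepatocellular carcinoma line, but the defining hepatocyte genes were at or near 0 in them, with ALB and TF listed at 0 throughout and AFP, APOA1 and HNF4A at 0.212 FPKM or less.

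The promoters of these genes are shown because HNF1 proteins are known to act at liver promoters. In RefSeq promoters of GRCh38.p14, which run from 250 bases before to 50 bases after the start of a gene, an HNF1-type pattern, GTTAAT followed by any base and ATT, was looked for on both strands. It was picked after the values were known, from 10 patterns searched. It was present in 0.293% of all 27305 promoters, in 15 of 2572 promoters of genes called higher in Huh-7 (0.583%), in 3 of 2538 of genes called higher in SK-hep1 (0.118%) and in 8 of 5437 of genes not called (0.147%). Of the 44 plasma protein genes tested, 32 had an entry, and the pattern was found in those of AFP, FGA and PLG. These matches are descriptions of the letters in the window. The sequences of the 3 promoters are given 5′ to 3′ on the strand of the gene, with the matched letters in capitals.
AFP, chr4:73435971-73436270, plus strand: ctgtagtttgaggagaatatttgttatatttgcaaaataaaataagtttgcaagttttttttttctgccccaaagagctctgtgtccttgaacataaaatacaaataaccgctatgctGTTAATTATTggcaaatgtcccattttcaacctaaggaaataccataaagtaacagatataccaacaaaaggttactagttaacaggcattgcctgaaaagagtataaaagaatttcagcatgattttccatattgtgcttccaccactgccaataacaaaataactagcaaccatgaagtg
FGA, chr4:154590693-154590992, minus strand: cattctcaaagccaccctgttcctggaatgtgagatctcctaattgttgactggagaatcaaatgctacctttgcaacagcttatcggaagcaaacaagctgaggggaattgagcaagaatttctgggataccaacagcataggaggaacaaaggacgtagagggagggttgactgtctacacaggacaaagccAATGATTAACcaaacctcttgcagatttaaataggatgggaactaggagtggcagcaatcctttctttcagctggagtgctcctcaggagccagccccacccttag
PLG, chr6:160701943-160702242, plus strand: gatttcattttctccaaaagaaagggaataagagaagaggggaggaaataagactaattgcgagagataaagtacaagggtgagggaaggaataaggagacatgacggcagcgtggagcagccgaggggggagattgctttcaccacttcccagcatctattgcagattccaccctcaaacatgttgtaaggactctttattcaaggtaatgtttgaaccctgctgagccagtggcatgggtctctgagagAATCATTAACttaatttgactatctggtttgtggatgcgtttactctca
In AFP the match starts 132 bases and in FGA 56 bases before the gene start, and in PLG it lies just after it. FGA, the third fibrinogen chain, was at 398 and 496 FPKM in Huh-7 and at no more than 0.0178 FPKM in SK-hep1. PLG, which encodes plasminogen, was at 174 and 264 FPKM in Huh-7 and was listed at 0 in every SK-hep1 library. CGCG was in 12.5% of plasma protein promoters, against 71.7% for all genes called higher in Huh-7, 78.0% for those called higher in SK-hep1 and 49.6% for all promoters. The FOXA-type TGTTTAC or TGTTTGC was in 21.9% of plasma protein promoters (7 of 32), against 7.19%, 3.94% and 7.15%. The HNF1-type pattern extended by AAC and the C/EBP-type pattern, TTGC followed by GCAA or ATTGC followed by GCA, were in none of the 32, and in 0.0037% and 0.443% of all promoters. The HNF4-type pattern, CAAAG followed by TCCA, was in 2 of the 32 (6.25%) and in 0.359% of all. TATAAA was in 12.5% and 11.95%, the TEAD-type GGAATG in 18.8% and 14.05% and the ETS-type CCGGAA in 12.5% and 17.6%. The AP-1-type TGACTCA was in 4.33% of promoters of genes called higher in SK-hep1, in 2.84% of those called higher in Huh-7, in 2.37% of those not called and in 4.92% of all.

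Most transcription factors on the hepatocyte list were higher in Huh-7. Of 26 listed, 25 were tested, 22 had ranges apart in favor of Huh-7 and 1 in favor of SK-hep1, and limma called 21 and 1, with a median log2 difference of 3.61. The shares called were 84% and 4%, against 26.1% and 23.6% of all genes tested. Members near 0 in SK-hep1, such as HNF4A and NR1H4, passed the filter through Huh-7, which nearly fixed their direction. HNF4A was at 114 and 109 FPKM in Huh-7 and at 0 to 0.082 FPKM in SK-hep1 (log2 difference 6.83, SE 0.12). FOXA3 was at 106 and 109 FPKM against 0.073 to 1.14 FPKM, and FOXA2 was at 46.5 and 49.8 FPKM, with reads in a single SK-hep1 library. NR1H4, the bile acid receptor, was at 47.8 and 50.9 FPKM and was listed at 0 in SK-hep1. CEBPB, a C/EBP protein that also serves inflammatory signaling, was the member that went the other way. It was at 30.04 and 32.1 FPKM in Huh-7 and at 102, 116, 224, 80.8 and 114 FPKM in SK-hep1 (log2 difference -2.01, SE 0.35, limma adjusted p = 0.00117).

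Most tested genes of hepatic metabolism and of sterol and lipoprotein handling were also called higher in Huh-7. Of 25 metabolic genes tested out of 42 written, 23 had ranges apart in favor of Huh-7 and none in favor of SK-hep1. limma called 21 (84%, against 26.1% of all genes), and the median log2 difference was 2.65. AKR1C1, an aldo-keto reductase, was at 384 and 425 FPKM against 0.233 to 0.934 FPKM. ASS1, a urea cycle enzyme, was at 162 and 180 FPKM against 0.25 to 0.779 FPKM. Members this low in SK-hep1 passed the filter through Huh-7, which nearly fixed their direction. All 42 sterol and lipoprotein genes were tested, of which 34 were apart in favor of Huh-7 and 3 in favor of SK-hep1, and limma called 30 and 1 (71.4% and 2.38%, median 2.20), against 26.1% and 23.6% of all genes. APOB, the scaffold of very low-density lipoprotein, was at 412 and 381 FPKM and had reads in only 1 SK-hep1 library (0.0055 FPKM). MTTP, which loads lipid onto APOB, was at 243 and 256 FPKM against at most 0.0282 FPKM. SREBF1, a regulator of lipid synthesis, was at 207 and 207 FPKM in Huh-7 and from 380 to 551 FPKM in SK-hep1, but its log2 difference of -0.83 (SE 0.16) was short of the 2-fold needed for a call.

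Of 20 oncofetal and liver progenitor genes tested out of 22, 15 were apart in favor of Huh-7 and 3 in favor of SK-hep1. limma called 14 and 2 (70% and 10%, against 26.1% and 23.6% of all genes), with a median log2 difference of 3.90. IGF2, a fetal growth factor, was at 379 and 396 FPKM in Huh-7 and at no more than 0.163 FPKM in SK-hep1. It passed the filter through Huh-7, which fixed its direction. CD24, a surface glycoprotein, was at 1171 and 1030 FPKM against 1.65 to 7.61 FPKM. The 3 genes in favor of SK-hep1 were the keratins KRT7 and KRT19 and the aminopeptidase ANPEP. KRT7 was at 0.101 and 0.109 FPKM in Huh-7 and at 28.8, 6.65, 21.6, 6.14 and 34.1 FPKM in SK-hep1, and ANPEP was at 166 and 156 FPKM against 1546 to 2759 FPKM. KRT19 was at 219 and 261 FPKM in Huh-7 and at 305 to 1210 FPKM in SK-hep1, and was not called (log2 difference -0.97, SE 0.47, limma adjusted p = 0.101), although it was without the mock library (-1.22, adjusted p = 0.0255).

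Most tested genes of epithelial junctions were called higher in Huh-7, with keratins among the exceptions. Of 34 epithelial junction genes tested out of 43, 24 were apart in favor of Huh-7 and 7 in favor of SK-hep1, and limma called 22 and 6 (median log2 difference 2.17). The shares apart were 70.6% and 20.6%, against 49.1% and 29.3% of all genes. CDH1, which encodes E-cadherin, was at 106 and 130 FPKM in Huh-7 and at 0, 0.0889, 0.0753, 0 and 0.0185 FPKM in SK-hep1, a log2 difference of 6.92 (SE 0.15, limma adjusted p = 1.34e-08). The adhesion molecule EPCAM was at 38.2 and 45.5 FPKM against at most 0.0368 FPKM and MAL2, a protein of apical transport, at 215 and 208 FPKM against at most 0.038 FPKM. Near 0 in SK-hep1, CDH1, EPCAM and MAL2 passed the filter through Huh-7, which nearly fixed their direction. Keratins went the other way. KRT8 was at 897 and 825 FPKM in Huh-7 and at 5749, 5367, 3655, 6701 and 9434 FPKM in SK-hep1 (log2 difference -2.82, SE 0.37). Its partner KRT18 was at 174 and 152 FPKM against 1330 to 3233 FPKM, and PKP3, a plakophilin of desmosomes, at 33.3 and 36.2 FPKM against 207 to 270 FPKM. Summed over the 43 genes, the FPKM were 2651.6 and 2641.5 in Huh-7 and from 5936 to 14312 in SK-hep1, where KRT8 was the larger part.

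Of 41 mesenchymal and EMT genes tested out of 44, 27 were apart in favor of SK-hep1 and 9 in favor of Huh-7. The shares were 65.9% and 22.0%, against 29.3% and 49.1% of all genes. limma called 26 and 7, and the median log2 difference was -3.04. VIM, which encodes vimentin, was at 58.9 and 61.6 FPKM in Huh-7 and at 721, 514, 680, 458 and 490 FPKM in SK-hep1 (log2 difference -3.12, SE 0.23, limma adjusted p = 9.65e-06). The galectin LGALS1 was at 15.96 and 16.7 FPKM against 2231 to 4617 FPKM, the matricellular protein CCN1 at 9.15 and 8.40 FPKM against 745 to 1581 FPKM, and the TGF-beta coreceptor ENG at 0.546 and 1.34 FPKM against 150 to 246 FPKM. AXL, a receptor tyrosine kinase, was at 0.192 and 0.180 FPKM against 242 to 385 FPKM. LGALS1, CCN1, ENG and AXL were picked among genes with ranges apart, so Huh-7 being below every SK-hep1 library was fixed for them. VIM, a gene the study names, was also below in both Huh-7 libraries.

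The EMT transcription factors did not share a direction. TWIST1 had no read in Huh-7 and was at 21.2, 38.7, 29.3, 29.3 and 26.2 FPKM in SK-hep1, at least 99.9-fold higher there than 3 reads in a Huh-7 library would give. SNAI2 was at 0.232 and 0.547 FPKM in Huh-7 and at 3.53 to 16.3 FPKM in SK-hep1 (log2 difference -3.29, SE 0.53). SNAI1 was at 13.98 and 14.2 FPKM in Huh-7 and at no more than 0.0587 FPKM in SK-hep1 (log2 difference 3.48, SE 0.09, limma adjusted p = 3.51e-08). CDH2, the N-cadherin that mesenchymal cells are known for, was also on the side of Huh-7, at 20.01 and 23.2 FPKM against 0.0924, 0, 0.0629, 0.0713 and 0.0413 FPKM. Both cadherins were thus near 0 in all of the SK-hep1 libraries. FN1, which encodes fibronectin, was at 2144 and 2291 FPKM in Huh-7 and at 95.7, 18.2, 11.2, 21.1 and 41.8 FPKM in SK-hep1, and CALD1, an actin-binding protein, was at 234 and 238 FPKM against 9.87 to 36.7 FPKM. Hepatocytes are a known source of plasma fibronectin, and FN1 is on the EMT list for the cellular form.

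The genes farthest apart in favor of SK-hep1 were of mixed kinds. KRT81, a hair keratin, had no read in Huh-7 and was at 1460, 1472, 1524, 1904 and 6038 FPKM in SK-hep1, at least 12740-fold above 3 reads in a Huh-7 library. Its copies in the type II keratin cluster are much alike, so reads may be split among them. PFKP, the platelet form of phosphofructokinase, was at 0.181 and 0.0649 FPKM against 1143 to 1705 FPKM, and LDHB, the heart form of lactate dehydrogenase, was at 0.558 and 0.343 FPKM against 558 to 1074 FPKM. The cell surface molecule L1CAM was at 0.0782 and 0.0840 FPKM against 904 to 1739 FPKM, and MSN, which encodes moesin and ties the membrane to actin, was at 0.334 and 0.0512 FPKM against 569 to 684 FPKM. FOSL1, an AP-1 transcription factor, was at 0.457 and 0.437 FPKM against 292 to 401 FPKM. Of the rest, BASP1 had no read in Huh-7 and was at 290 to 452 FPKM in SK-hep1, and FXYD5, GPRC5A and SRGN were at no more than 0.577 FPKM in Huh-7 and at 301 FPKM or more in SK-hep1.

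Matrix genes were mixed, and more of the proteases and integrins were called higher in SK-hep1 than in Huh-7. Of 39 collagens and matrix glycoproteins tested out of 46, limma called 18 higher in SK-hep1 and 11 higher in Huh-7 (median log2 difference -0.59). Ranges were apart for 21 and 12 (53.8% and 30.8%, against 29.3% and 49.1% of all genes). The basement membrane collagen COL4A2 was at 0.105 and 0.113 FPKM in Huh-7 and at 291, 284, 281, 324 and 307 FPKM in SK-hep1, and the laminin chain LAMB3 was at 0.0878 and 0.212 FPKM against 302 to 646 FPKM. SPARC, a collagen-binding protein, was at 35.4 and 38.1 FPKM against 2317 to 4408 FPKM, and COL5A1 had no read in Huh-7 and was at 51.5 to 142 FPKM in SK-hep1. Toward Huh-7 were COL1A2, a chain of collagen I, at 141 and 150 FPKM against 0.256 to 1.82 FPKM, and the fibulin FBLN1, at 393 and 379 FPKM against 12.6 to 29.6 FPKM. The chains of the fibrillar collagens were therefore not all on the same side.

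Of 33 integrins and adhesion adaptors tested out of 40, 19 were apart in favor of SK-hep1 and 10 in favor of Huh-7, and limma called 17 and 5 (median log2 difference -1.04). The shares called were 51.5% and 15.2%, against 23.6% and 26.1% of all genes. ITGA3, a laminin receptor chain, was at 3.13 and 3.52 FPKM in Huh-7 and at 1138 to 1885 FPKM in SK-hep1, and ITGB4, a chain of the hemidesmosome, was at 1.58 and 1.29 FPKM against 25.5, 124, 130, 69.9 and 219 FPKM. ITGAV, a chain of vitronectin receptors, was at 102 and 103 FPKM in Huh-7 against 22.2 to 28.7 FPKM. Of 28 matrix protease and plasminogen activation genes tested out of 37, 19 were apart in favor of SK-hep1 and 8 in favor of Huh-7, with 20 and 7 called (71.4% and 25%, median -1.86). The plasminogen system was on both sides, with plasminogen itself in Huh-7 and its activators and their receptor in SK-hep1. PLAU, the urokinase activator, was at 12.3 and 13.8 FPKM in Huh-7 and at 431, 372, 983, 450 and 285 FPKM in SK-hep1. PLAT, the tissue activator, was at 0.562 and 0.805 FPKM against 81.7 to 177 FPKM, and the urokinase receptor PLAUR was at 3.67 and 3.56 FPKM against 85.3 to 170 FPKM. TIMP2, an inhibitor of metalloproteases, was also higher in SK-hep1 (134 to 186 FPKM against 2.76 and 3.64 FPKM), whereas MMP11 was at 44.9 and 52.7 FPKM in Huh-7 against 0.317 to 4.99 FPKM, and MMP15 at 99.97 and 89.9 FPKM against 5.50 to 15.5 FPKM.

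Markers of other cell types of the liver were found at different levels. Of 40 endothelial genes, 11 were tested, and limma called 6 higher in SK-hep1 and 2 higher in Huh-7. The shares were 54.5% and 18.2%, against 23.6% and 26.1% of all genes, and the same numbers of genes had ranges apart. The summed level of the 40 was 424 and 387 FPKM in Huh-7 and from 451 to 665 FPKM in SK-hep1. In Huh-7 most of the sum was TM4SF1 alone. PECAM1, the defining endothelial adhesion molecule, was at 5.31 and 4.12 FPKM in Huh-7 and at 0 to 0.0768 FPKM in SK-hep1. The protein C receptor PROCR was at 1.20 and 1.86 FPKM against 47.2 to 85.4 FPKM, the transcription factor SOX18 at 0.197 and 0.0704 FPKM against 13 to 31.8 FPKM, and FLI1 had no read in Huh-7 and was at 1.13 to 5.15 FPKM in SK-hep1. TM4SF1 was at 327 and 282 FPKM in Huh-7 and at 77.4 to 203 FPKM in SK-hep1, a call (limma adjusted p = 0.00996) that was lost without either Huh-7 library (adjusted p = 0.103 and 0.0746).

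Of 14 biliary genes, 11 were tested, of which 6 were apart in favor of Huh-7 and 4 in favor of SK-hep1 (54.5% and 36.4%, near the 49.1% and 29.3% of all genes). limma called 5 and 2 (45.5% and 18.2%, against 26.1% and 23.6% of all genes), with a median log2 difference of 0.85. The summed level of the 14 was 832 and 784 FPKM in Huh-7 and from 822 to 1928 FPKM in SK-hep1. The secretin receptor SCTR was at 14.7 and 15.4 FPKM with no read in SK-hep1, and the mucin MUC1 was at 0.601 and 1.16 FPKM against 19.6 to 31.9 FPKM. Of 16 leukocyte and macrophage genes, 4 were tested, and limma called LYZ and CD3D higher in Huh-7 and CD14 higher in SK-hep1, the last not without either Huh-7 library (adjusted p = 0.0697 and 0.0629). The shares called were 50% and 25%, against 26.1% and 23.6% of all genes. Lysozyme, the product of LYZ, made up nearly all of that list in Huh-7. It was at 441 and 427 FPKM there, of summed levels of 453 and 443 FPKM. The sums in SK-hep1 were from 7.01 to 20.6 FPKM. Of 18 stellate and smooth muscle genes, 10 were tested and 3 were called in each direction (30% each, near the 26.1% and 23.6% of all genes). The proteoglycan BGN was at 8.19 and 7.15 FPKM in Huh-7 against at most 0.0756 FPKM, and smooth muscle actin, ACTA2, was at 0.0682 and 0 FPKM against 1.64 to 4.31 FPKM. COL3A1 was at 0.931 and 0.844 FPKM in Huh-7 and at 139, 167, 287, 79.3 and 121 FPKM in SK-hep1.

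Genes of antigen presentation were low in Huh-7. Of 17 MHC class I, class II and antigen processing genes tested out of 26, 14 were apart in favor of SK-hep1 and limma called 13, with none called higher in Huh-7 (median log2 difference -2.36). The shares in favor of SK-hep1 were 82.4% apart and 76.5% called, against 29.3% and 23.6% of all genes. HLA-B, a class I heavy chain, was at 1.90 and 2.82 FPKM in Huh-7 and at 120, 130, 1060, 110 and 242 FPKM in SK-hep1, the high value being that of PSPC1/PTK6. The alleles of the class I genes are much alike and differ between people, so their counts are uncertain. PSMB9, a subunit of the immunoproteasome, was at 2.65 and 2.96 FPKM against 38.2 to 143 FPKM, and NLRC5, a transactivator of class I genes, was at 0.111 and 0.0898 FPKM against 8.71 to 23.3 FPKM. ERAP1 was the member apart in favor of Huh-7, by 36.2 and 35.4 FPKM against 20.3 to 35.2 FPKM, and was not called (limma adjusted p = 0.0968).

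Of 27 inflammatory cytokine and chemokine genes tested out of 32, 15 were apart in favor of SK-hep1 and 9 in favor of Huh-7, and limma called 13 and 7 (median log2 difference -1.89). The shares called were 48.1% and 25.9%, against 23.6% and 26.1% of all genes, so the share in favor of Huh-7 was that of the background. CCL5 was at 0.110 and 0.0591 FPKM in Huh-7 and at 310, 258, 4347, 225 and 280 FPKM in SK-hep1. PSPC1/PTK6 stood above the other SK-hep1 libraries for this chemokine, but without it the log2 difference was still -7.92 (limma adjusted p = 1.27e-07), against -8.81 with it. IL6 was at 0.0711 and 0 FPKM in Huh-7 and at 12.4, 18.1, 98.8, 8.39 and 27.7 FPKM in SK-hep1, again with PSPC1/PTK6 highest. LIF, a cytokine of the same family, was at 0.857 and 0.978 FPKM against 23.4 to 49.0 FPKM. The chemokine CCL20 was on the side of Huh-7, at 358 FPKM untreated and 204 FPKM with HGF, and had reads in a single SK-hep1 library (0.110 FPKM).

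Genes of the pathways under study were apart in both directions, in shares near those of all genes. Of 48 paraspeckle, PTK6, MET and Wnt genes tested out of 58, 26 were apart in favor of Huh-7 and 16 in favor of SK-hep1, and limma called 21 and 13 (median log2 difference 0.35). The shares apart were 54.2% and 33.3%, near the 49.1% and 29.3% of all genes, and nothing is read from them. By limma calls, the shares were 43.8% in favor of Huh-7 and 27.1% in favor of SK-hep1, against 26.1% and 23.6% of all genes. PSPC1 was at 55.2 and 46.2 FPKM in Huh-7. In SK-hep1 it had no read in mock and was at 7.01 FPKM with PSPC1, 26.4 FPKM with PSPC1/PTK6, 2.28 FPKM with PSPC1-Y523F and 70.9 FPKM with PSPC1-Y523F/PTK6. Its ranges overlapped because of the last of these, and it was not called (log2 difference 2.42, SE 1.46, limma adjusted p = 0.171). The difference was 1.59 without mock (adjusted p = 0.213) and 3.13 without PSPC1-Y523F/PTK6 (adjusted p = 0.0507). PTK6 was at 0.344 and 0.320 FPKM in Huh-7 and at 4.79 FPKM in mock, 5.69 FPKM with PSPC1, 16.7 FPKM with PSPC1/PTK6, 4.09 FPKM with PSPC1-Y523F and 10.5 FPKM with PSPC1-Y523F/PTK6 (log2 difference -3.07, SE 0.39, limma adjusted p = 0.000218).

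NONO and SFPQ, the paraspeckle partners of PSPC1, were lower in Huh-7. NONO was at 159 and 153 FPKM against 503 to 632 FPKM and was called (log2 difference -1.57, SE 0.12). SFPQ was at 193 and 138 FPKM against 250.6 to 440 FPKM, with a log2 difference of -0.69 (SE 0.24), short of 2-fold. CTNNB1, which encodes beta-catenin, was at 438 and 410 FPKM in Huh-7 and at 174, 153, 167, 140 and 158 FPKM in SK-hep1 (log2 difference 1.69, SE 0.12, limma adjusted p = 7.95e-06). MET, the HGF receptor, did not separate the lines, at 50.01 and 51.8 FPKM against 38.2 to 50.2 FPKM. HPN, a protease that activates HGF, was at 82.6 and 111 FPKM in Huh-7 with no read in SK-hep1. MYC was at 110 and 89.0 FPKM against 143 to 255 FPKM and was not called (log2 difference -0.65, SE 0.24).

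Within the Wnt pathway, the receptors and ligands were split. LGR4, a receptor of R-spondins, was at 175 and 190 FPKM in Huh-7 against 0.363 to 3.41 FPKM. The ligand WNT5B was at 1.15 and 1.23 FPKM against 253 to 522 FPKM and the receptor FZD2 at 1.82 and 1.52 FPKM against 172 to 277 FPKM. WNT1 and WNT3A were at 0.106 FPKM or less in every library of both lines and were not tested. NANOG, SOX2 and POU5F1, factors of pluripotent cells, were also too low to test, with NANOG listed at 0 in all 7 libraries. TGFB1 was at 48.0 and 49.1 FPKM in Huh-7 and at 459 to 802 FPKM in SK-hep1, SMAD3 at 75.8 and 78.2 FPKM against 273 to 383 FPKM, and SMAD2 overlapped at 9.91 and 10.3 FPKM against 7.82 to 11.7 FPKM.

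Of 34 growth factor receptors and IGF axis genes tested out of 41, limma called 14 in each direction (41.2% each, against 26.1% and 23.6% of all genes). Ranges were apart for 17 in favor of Huh-7 and 13 in favor of SK-hep1 (50% and 38.2%, beside 49.1% and 29.3% of all genes, median log2 difference 0.33). FGF19, its coreceptor KLB and the receptor FGFR3 were all on the side of Huh-7. FGF19 was at 21.3 and 17.7 FPKM against at most 0.325 FPKM, KLB at 53.6 and 52.6 FPKM against at most 0.0234 FPKM, and FGFR3 at 231 and 231 FPKM against 0.705 to 0.981 FPKM. On the side of SK-hep1 were IGFBP3, which binds insulin-like growth factors (9.24 and 7.64 FPKM against 118 to 366 FPKM), and the collagen receptor DDR1 (20.3 and 28.2 FPKM against 211 to 308 FPKM).

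Neighbors of PSPC1 on chromosome 13 were silent in the SK-hep1 libraries. Positions are those of GRCh38, as the tables list them. PSPC1 spans chr13:19674752-19783019, and between MPHOSPH8, which starts at 19633681, and XPO4, which ends at 20903048, a stretch of 1.27 Mb, 15 genes were above 0.5 FPKM in at least 1 library of the series. All 15, PSPC1 included, were at 0 in SK-hep1 mock, and 13 were at 0 in all 5 SK-hep1 libraries. The exceptions were PSPC1 itself and MPHOSPH8, which was at 0.0341 FPKM in PSPC1-Y523F. In Huh-7, 13 of the 15 were above 0 in both libraries, and in the 3 Mahlavu libraries 13 were above 0 throughout.

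Of these genes, ZMYM2, a chromatin factor, was at 23.9 and 23.3 FPKM in Huh-7 with no read in any SK-hep1 library, at least 565-fold above 3 reads. The nuclear transport receptor XPO4 was at 9.90 and 9.23 FPKM, the ciliary protein IFT88 at 6.27 and 5.89 FPKM, CRYL1, an enzyme, at 10.3 and 17.9 FPKM, ZMYM5 at 4.84 and 4.29 FPKM and EEF1AKMT1, a methyltransferase of elongation factor eEF1A, at 4.69 and 3.86 FPKM, each without a read in SK-hep1. MPHOSPH8, a reader of methylated histones, was at 31.4 and 29.9 FPKM in Huh-7. Just past XPO4, the kinase gene LATS2 was at 75.8, 130, 111, 65.9 and 67.1 FPKM in SK-hep1 and at 8.22 and 9.89 FPKM in Huh-7, and SAP18 overlapped between the lines (81.4 and 85.8 FPKM against 64.6 to 110 FPKM). On the side of LATS2 the silent stretch thus ended between neighboring genes. Toward the start of the chromosome, no gene was above 0.5 FPKM in every SK-hep1 library, so MPHOSPH8 is a chosen limit. TUBA3C, before MPHOSPH8, was at 0 in every Huh-7 and SK-hep1 library and at 7.31 to 14.1 FPKM in Mahlavu. This stretch was chosen after its values were seen, and DNA was not analysed here.

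**Figure D2:**
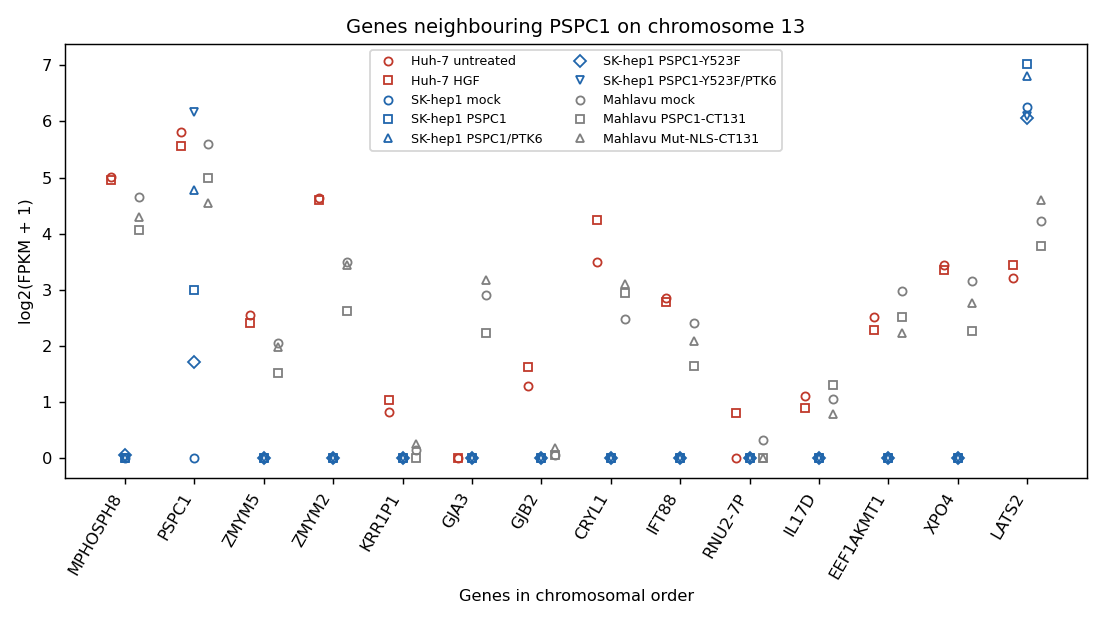
Levels of PSPC1 and its neighbors with a gene symbol on chromosome 13 in chromosomal order (x axis) as log2(FPKM + 1) of the deposited values (y axis), with a symbol for each library of Huh-7 (red), SK-hep1 (blue) and Mahlavu (grey). From ZMYM5 to XPO4 every SK-hep1 library is at 0, whereas at LATS2 the 5 SK-hep1 libraries lie above Huh-7 and Mahlavu.

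In all, 52 runs of at least 3 genes, neighbors among the genes tested, were apart in the same direction. No library of the lower line was above 0.1 FPKM for any gene of a run. Of the runs, 39 were higher in Huh-7 (164 genes) and 13 higher in SK-hep1 (46 genes). Genes that were not tested were passed over, so they can lie between the members of a run. On chromosome 9, MTAP, a methionine salvage enzyme, and the cell cycle inhibitors CDKN2A and CDKN2B formed such a run. MTAP was at 19.9 and 17.6 FPKM, CDKN2A at 119 and 113 FPKM and CDKN2B at 9.16 and 7.52 FPKM in Huh-7, and SK-hep1 had no read of MTAP or CDKN2B and a value of 0.0582 FPKM for CDKN2A in mock alone. The longest run, of 22 genes on chromosome 19 from 52369917 to 53580269, and a further run of 12 genes on the same chromosome were made up mostly of zinc finger genes and were at or below 0.1 FPKM in SK-hep1. Among all genes named ZNF with a number on chromosome 19, 125 of 189 were apart in favor of Huh-7 and 28 in favor of SK-hep1, against 231 and 405 of the 837 other genes on that chromosome and 103 and 48 of 187 ZNF genes elsewhere. Over all genes tested, 49.1% and 29.3% were apart. The shares called by limma were 33.3% and 14.3% of ZNF genes on chromosome 19, against 26.1% and 23.6% of all genes. They were 14.9% and 34.8% of the other genes on that chromosome. For ZNF genes elsewhere they were 18.7% and 22.5%, so there the balance of calls was toward SK-hep1. ZNF genes share sequence, so reads may be split among them. Other runs were gene clusters of known liver function, such as FGB, FGA and FGG on chromosome 4, APOA5, APOC3 and APOA1 on chromosome 11 and the UGT2 genes on chromosome 4.

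In the direction of SK-hep1 the longest run was HOXB3, HOXB-AS3, HOXB5, HOXB6, HOXB7 and HOXB9 on chromosome 17. HOX genes encode homeodomain proteins that set position along the body axis. HOXB7 was at 0 and 0.0828 FPKM in Huh-7 and at 73.8, 52.2, 70.1, 66.6 and 57.6 FPKM in SK-hep1 (log2 difference -5.99, SE 0.14). HOXB6 and HOXB3 had no read in Huh-7 and were at 6.72 to 18.2 FPKM and 4.40 to 17.5 FPKM in SK-hep1. Of 16 HOX genes tested out of 39, 9 were apart in favor of SK-hep1 and all of these were called, and 4 were apart in favor of Huh-7 and none was called (median log2 difference -1.96). The shares apart were 56.3% and 25%, against 29.3% and 49.1% of all genes. Of these 4, HOXA3 had the largest log2 difference, 0.997, at 4.30 and 3.63 FPKM against 0.371 to 0.705 FPKM. It passed 2-fold without the HGF-treated library (1.11) and without mock, PSPC1 or PSPC1-Y523F/PTK6 (1.02, 1.01 and 1.02).

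The directions were unevenly spread over chromosomes. Of 512 genes tested on chromosome 4, 44.7% were called higher in Huh-7 and 13.1% higher in SK-hep1, and on chromosome 18 the shares were 44.2% and 12.1% of 206 genes. On chromosomes 16 and 17 the balance was the other way, at 15.7% and 33.3% of 655 genes and 14.4% and 32.5% of 872 genes. GC content moved with direction in the same data. The longest GENCODE 29 transcript of genes called higher in Huh-7 had a median GC content of 44.5%, against 56.1% for genes called higher in SK-hep1 and 47.5% for the genes not called, and Spearman's rho of the log2 difference and GC content was -0.37 across 14100 genes, which share the same 7 libraries and are not independent. The part of GC content in the differences between the lines was not tested.

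**Figure D3:**
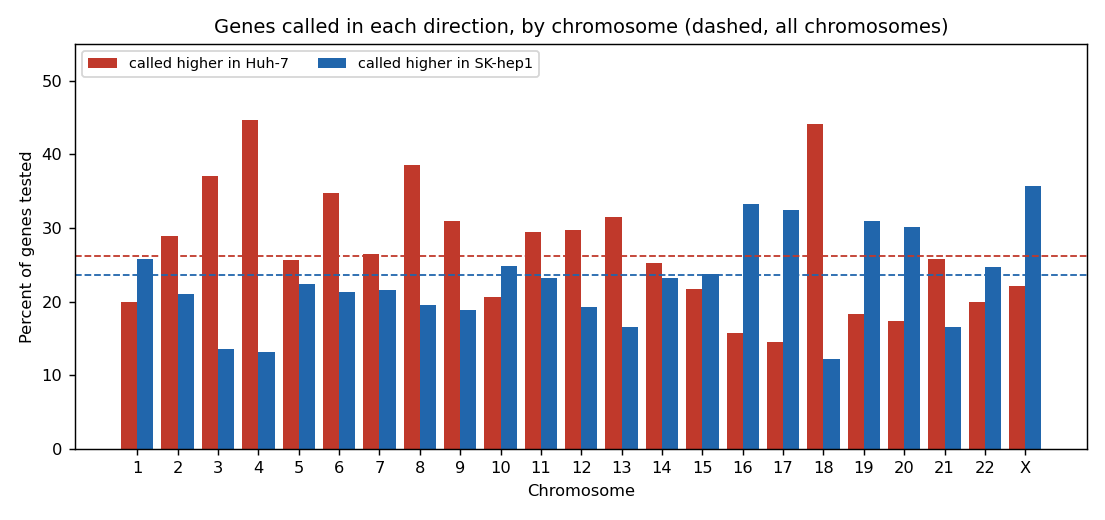
Percent of the genes tested on each chromosome (x axis) that limma called higher in Huh-7 (red bars) or higher in SK-hep1 (blue bars), with the percent over all chromosomes as dashed lines. Red bars stand well above blue ones on chromosomes 3, 4, 8 and 18, and blue bars are taller than red ones on 1, 10, 15, 16, 17, 19, 20, 22 and X.

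Most cell cycle and housekeeping genes were not called. Of 39 cell cycle genes tested out of 40, 7 were called in each direction (17.9% each, against 26.1% and 23.6% of all genes). Ranges were apart for 14 in favor of Huh-7 and 11 in favor of SK-hep1. These shares were 35.9% and 28.2%, against 49.1% and 29.3% of all genes, and the median log2 difference was 0.03. The p21 gene CDKN1A was at 5.53 and 8.66 FPKM in Huh-7 and at 309 to 493 FPKM in SK-hep1, and CCND3, a D-type cyclin, was at 5.24 and 5.996 FPKM against 199.99 to 535 FPKM. CDK1, the mitotic kinase, was at 77.6 and 78.0 FPKM in Huh-7 against 15.96 to 21.8 FPKM. Of 30 housekeeping genes, 17 were apart in favor of SK-hep1 and 7 in favor of Huh-7. limma called 4 and 2 (13.3% and 6.67%, against 23.6% and 26.1% of all genes, median -0.24). Their ranges were thus apart for 24 of 30, beside 78.3% of all genes. ACTB was at 1898 and 1629 FPKM against 3796 to 5595 FPKM, a call (limma adjusted p = 0.00185) that was lost without the HGF-treated library (adjusted p = 0.0625). PGK1 was at 132 and 114 FPKM against 376 to 508 FPKM, while EEF1A1 was at 7480 and 7574 FPKM against 2451 to 4267 FPKM and was not called.

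Of 28 MAGE, GAGE and PRAME antigen genes, which are usually limited to germ cells and tumors, 6 were tested. limma called 2 higher in Huh-7 and 3 higher in SK-hep1 (33.3% and 50%, against 26.1% and 23.6% of all genes). MAGEB2 was at 10.3 and 8.07 FPKM in Huh-7 with no read in SK-hep1. GAGE1 had no read in Huh-7 and was at 4.06 to 6.66 FPKM in SK-hep1. MAGEA3 had no read in Huh-7 and was at 0.798, 34.4, 44.3, 43.9 and 45.1 FPKM in SK-hep1, mock being far below the others, and its call was lost without either Huh-7 library (limma adjusted p = 0.0906 and 0.0917). Without mock its log2 difference was -5.44 (adjusted p = 6.12e-07). These families have near-identical copies, and their counts are uncertain.

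Mitochondrial genes and some RNAs without poly-A tails were higher in Huh-7. All 15 mitochondrial genes of the list were tested, of which 11 were apart in favor of Huh-7 and called. This was 73.3%, against 49.1% of all genes apart and 26.1% called in favor of Huh-7. Mitochondrial genes took 4.31% and 4.62% of the summed FPKM in Huh-7 and 0.679% to 2.48% in SK-hep1. MT-ND6, a subunit of complex I, was at 1440 and 1723 FPKM in Huh-7 and at 5.89, 159, 8.86, 22.0 and 108 FPKM in SK-hep1, and the ribosomal RNA MT-RNR2 was at 3370 and 3909 FPKM against 15.6, 1584, 55.8, 35.8 and 583 FPKM. The SK-hep1 libraries thus differed greatly among themselves, and the call of MT-RNR2 (limma adjusted p = 0.0276) was lost without either Huh-7 library (adjusted p = 0.157 and 0.166) or without PSPC1-Y523F (adjusted p = 0.0504). Its log2 difference was 4.28 without mock and 5.85 without PSPC1. The call of MT-ND6 was lost without the HGF-treated library (adjusted p = 0.0548). Of 27 RNAs without poly-A tails written, 15 were found in the tables and 3 were tested. limma called RN7SL2 and H2AC6 higher in Huh-7 (66.7%, against 26.1% of all genes). As only 3 were tested, nothing is read from that share. RN7SL2, the RNA of the signal recognition particle, was at 1490 and 1725 FPKM in Huh-7 and at 88.8 to 211 FPKM in SK-hep1.

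By annotation class, snRNA genes were apart in favor of Huh-7 in 26 of 37 cases and in favor of SK-hep1 in none, snoRNA genes in 26 and 1 of 45, and lincRNA genes in 283 and 84 of 448. Protein-coding genes were apart in 5812 and 3886 of 12357 cases, with a median log2 difference of 0.0022. Over all genes tested the shares apart were 49.1% and 29.3%. Ranges were compared in the deposited FPKM, where 62.6% of those apart were higher in Huh-7.

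Close to the threshold, ranges apart meant little. The genes just inside the rule in favor of Huh-7 were TANC1, at 11.41 and 11.042 FPKM against 8.28 to 11.038 FPKM, and RYBP, at 5.78 and 5.29 FPKM against 3.56 to 5.29 FPKM. After quantile normalization the log2 differences of both, -0.31 and -0.39, were in the other direction. Just outside were RNU7-47P, at 0 and 4.23 FPKM against 0 throughout, and C17orf80, at 8.18 and 8.96 FPKM against 4.85 to 8.18 FPKM. Toward SK-hep1, OLFML2A (0.831 and 0.877 FPKM against 0.878 to 5.86 FPKM) and PAQR6 (1.28 and 1.77 FPKM against 1.77 to 4.34 FPKM) were just inside, and KRTAP4-8 and MIR6784, each at 0 in Huh-7 and in at least 1 SK-hep1 library, were just outside. OLFML2A was called, but not without either Huh-7 library (limma adjusted p = 0.0717 and 0.071). RNU7-47P was called without the untreated library (log2 difference 1.80) and MIR6784 without PSPC1 (-2.01), and KRTAP4-8 was at -0.91 without PSPC1/PTK6.

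Mahlavu, the other line of the series, was set against the same SK-hep1 libraries by the same rule. These libraries were mock control, PSPC1-CT131, a fragment of PSPC1, and Mut-NLS-CT131, a form of it with a mutated nuclear localization sequence. Of 13062 genes tested, 4103 (31.4%) were apart in favor of Mahlavu and 2153 (16.5%) in favor of SK-hep1. The comparisons share the SK-hep1 libraries, so their values are given only side by side. Of the plasma proteins, 6 of 10 tested were apart in favor of Mahlavu and 2 in favor of SK-hep1, and the summed level was from 1110 to 1300 FPKM in Mahlavu. ALB and TF were listed at 0 in Mahlavu and AFP was at 0.136 FPKM or less. Of the mesenchymal and EMT genes, 7 of 39 were apart in favor of Mahlavu and 13 in favor of SK-hep1. Mahlavu resembled Huh-7 rather than SK-hep1 in level for CDH2 (20.8 to 27.3 FPKM), SNAI1 (8.29 to 17.2 FPKM) and CDKN2A (330 to 445 FPKM), and SK-hep1 rather than Huh-7 for CDH1 (0.337 to 0.477 FPKM), TWIST1 (80.2 to 104 FPKM), L1CAM (938 to 1684 FPKM) and PFKP (708 to 1462 FPKM).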

How the data were processed

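RNA-Seq libraries of human cell lines were analysed from the tables the authors deposited. For SK-hep1 and Mahlavu cells the authors deposited raw read counts and FPKM per gene, and for Huh-7 cells the authors deposited FPKM only. Per the submitters' processing notes, TopHat2 2.0, HTSeq 0.6.1 and edgeR were used with GRCh38.p12. The paper's methods name another build and rRNA depletion, whereas the labels describe poly-A selection and a kit that is not named as strand-specific, so a gene and its antisense partner cannot be told apart. Each table lists 58302 genes, of which 57532 were paired with a symbol, after 8 lines without a gene ID were left out. Positions matched GENCODE 29 for 97.6% of shared genes. The length behind each FPKM was recovered for 30246 genes from counts and FPKM of the other lines, and Huh-7 reads were taken from it (100% whole within 0.01 reads). For 280 genes at 1 FPKM or more in both Huh-7 libraries no length was recovered, so no bound on the fold is given.

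Genes with a mean of the Huh-7 mean and the SK-hep1 mean of at least 1 FPKM were kept. Ranges were compared in FPKM as deposited. limma 3.58.1 (R 4.3.3, empirical Bayes with trend) was run on log2 of quantile-normalized FPKM with a pseudocount of 1, over the 7 libraries, with Benjamini-Hochberg adjustment over all genes tested. A call is an adjusted p below 0.05 with a difference of at least 2-fold. In simulated data for this comparison with 11692 genes, 200 of 200 genes changed 4-fold were recovered with 1 false call. The simulation gave every gene the same spread in both lines and raised only those 200 genes, in Huh-7. It therefore does not show how the test behaves with uneven spread or with as many differences as these lines have. Counts recovered for Huh-7 were used only in the alternatives with edgeR 4.0.16 and DESeq2 1.42.0. Floors are 3 reads in a library and cover counting error only. Fits that leave out a Huh-7 library keep 1 library of that line, which is assumed to vary like SK-hep1. Tables were made with pandas 2.3.3.

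The members and the 24 gene lists were chosen with earlier results of these data known. Genes named are the 15 with the largest gap between the lines in each direction, the members of a list with the largest differences among those with ranges apart (up to 4 in each direction) and its defining markers, genes the study is about, the 2 genes on either side of the threshold and the genes of runs of neighbors. The stretch around PSPC1, the ZNF counts and the promoter patterns were chosen after seeing the data. Sequences are from RefSeq. Some genes that the rule names are not reported here.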

Additional observations from a re-analysis of the deposited data

Results flagged for a closer look

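Among 156 genes reported here, 12 had a single SK-hep1 library that stood apart. Its gap to the nearest of the others, divided by the range of the 5, was above 0.71. Chance gives this in about 1 in 20 groups of normally distributed values. The ratio was taken on FPKM without logarithms, and the genes were picked for other results, so that rate need not hold here. PSPC1/PTK6 was the library apart for CCL5 (0.979), HLA-B (0.861), IL6 (0.786), PLAU (0.763), CEBPB (0.754) and MYC (0.711), in each case the highest. PSPC1-Y523F/PTK6 was the highest for KRT81 (0.903) and CALD1 (0.799), and PSPC1-Y523F for HOXB6 (0.741). Mock was the lowest for FZD2 (0.874) and MAGEA3 (0.759), and PSPC1 was the lowest for FOSL1 (0.786). The libraries differ in construct, and the cause was not tested. Huh-7 lay outside the SK-hep1 range for all 12 genes. For most of them this was fixed by the choice of genes with ranges apart, so nothing is read from it.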

How the results depend on the processing

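The counts of genes with ranges apart, 6927 in favor of Huh-7 and 4132 in favor of SK-hep1, were 5663 and 5234 after quantile normalization. They became 13153 and 5124 without the filter on low values, 4582 and 3318 with a mean of at least 5 FPKM, and 3482 and 1769 when the nearest libraries had to be at least 2-fold apart. Leaving out each library in turn gave 6970 to 7387 and 4196 to 4401. The limma calls, 3691 and 3333, were 2299 and 2319 with a pseudocount of 5, 4033 and 3645 with a pseudocount of 0.1, 4919 and 2575 in FPKM as deposited, 4231 and 3548 with edgeR on reads and 4055 and 3610 with DESeq2, and 3473 to 3713 and 2988 to 3380 without each library. With at most 0.5 FPKM in the lower line there were 87 runs of neighboring genes, against 52. Among lists, quantile normalization left 0 MHC genes apart in favor of Huh-7 (1 before) and 2 biliary genes apart in favor of SK-hep1 (4 before). Without each library, 1 to 2 MAGE, GAGE and PRAME genes were apart in favor of Huh-7, the 1 being without the untreated Huh-7 library. For named genes, 419 alternative values kept their direction and call, 10 gained a call and 6 lost it (TM4SF1, MT-RNR1 and MT-RNR2 with edgeR, and CD14, OLFML2A and PAQR6 as deposited), and 8 changed sign, none of them called. As deposited these were SMAD2 (0.0870), SAP18 (-0.0039), TANC1 (0.22), RYBP (0.30) and C17orf80 (0.27), and with edgeR MET (-0.0805), SAP18 (-0.34) and RYBP (0.0429). The cause was not tested. No paired analysis was possible because each library is a condition of its own and the labels give no number that joins a Huh-7 library to an SK-hep1 library. Depth limits statements on genes listed at 0 to the floor of 3 reads.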
